A study of Mus musculus with 6 samples.

Results

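Semaphorins, plexins, neuropilins, ephrins and Eph receptors form 2 signalling systems through which cells repel, attract or hold one another on contact or at short range. Membership was set by gene symbol alone, and the families themselves were chosen with earlier results of these data known: 53 of 55809 gene rows carried such a symbol. The libraries held polyadenylated RNA of mast cells sorted from the skin of C57BL6J mouse fetuses at embryonic day 18.5; the protocol says that both sexes were used in the experiments, without the sex of a pool. The sort kept CD45+ CD117+ ST2+ cells that lacked F4/80 and CD64, from a 45 minute enzyme digest of minced skin. In the prenatal stress group, pregnant dams were restrained in tubes 3 times a day for 30 minutes under a bright lamp of 200 W. The restraint began at day 13.5 by the design text (day 13 by the protocol) and ended at day 18.5 (day 18 by the protocol). Control dams were left undisturbed, and the dams of both groups were mated at 8 to 10 weeks of age. Each group had 3 libraries, each from a pool of 4 mice and called a biological replicate. The labels do not say how many litters a pool held. A p-value here weighs the group difference only against the spread between pools, which may be partly technical.

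Semaphorins are secreted or membrane-bound ligands, and plexins are their main receptors. Neuropilins are co-receptors that let most secreted class 3 semaphorins act through plexins of the A class. Plexins switch off small GTPases of the Ras and Rap type and reshape the actin skeleton, which can make a cell round up or lose adhesion. Ephrins are ligands anchored in the membrane of one cell that bind Eph receptor tyrosine kinases on a neighbour, and both partners can signal into their own cell. These families are best known from growing nerves and blood vessels, and several members also act in immune cells, where they influence migration, adhesion and activation.

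Gene counts per library ran from 51710555 to 74735139. Levels are given in CPM, a gene's count relative to its library total after scaling by TMM factors. The 12 mast cell markers checked were all present and together took 58885 to 71203 CPM in the controls and 85809 to 103560 CPM after prenatal stress. Of the 12, 8 were called higher and none lower, with a median log2 fold change of 0.50 over the 12. Mrgprb1 (2.51) and Fcer1a (2.26) rose by the most. The part of the mast cell markers in the results below was not tested. All 16 macrophage and monocyte markers were also present in every library, at a summed 9435 to 10779 CPM in the controls and at 7600, 6974 and 11249 CPM in stress replicates 1, 2 and 3. None of the 16 was at 0 in any library, 1 was called higher (Cd68) and 1 lower (Cx3cr1). The 5 melanocyte markers (Dct, Pmel, Tyr, Tyrp1 and Mlana) were all called higher, from a summed 13.9 to 19.5 CPM to 28.5 to 69.8 CPM, highest in stress replicate 2. In bulk RNA, fewer cells of a type and less RNA per cell cannot be told apart. Groups were compared with edgeR's quasi-likelihood test, and a gene passed where its p-value, adjusted over all genes by Benjamini-Hochberg, was under 0.05. Of 16716 genes tested, 1035 passed, 725 higher and 310 lower.

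Of the 53 genes, 8 had a summed count under 60 over the 6 libraries and were too low to measure. These were Efna3, Epha5, Epha6, Epha8, Epha10, Ephb1, Sema4f and Sema5b. Epha6 and Epha8 had no count in any library, which allows up to 0.00853 CPM by counting error alone. Epha5 had 50.4% of its summed CPM in stress replicate 2. The highest of the 8 was Sema4f with 42 counts, and the lowest gene above the limit was Epha3 with 78. The other 45 genes also passed the filter on low counts and were tested: 18 semaphorins, all 9 plexins, both neuropilins, 7 ephrins, 5 EphA receptors and 4 EphB receptors.

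Of those 45 genes, 5 passed the test, 11.1%, where 6.19% of all genes did. Sema3e and Efnb2 were higher after prenatal stress, and Ephb6, Plxna4 and Sema4d were lower. Before adjustment 17 had p under 0.05, where 24.8% of all genes did. By direction the calls were 2 of 45 higher, against 4.34% of all genes, and 3 of 45 lower, against 1.85%. The median log2 fold change of the 45 was -0.19, and that of all genes tested was -0.0039. Both genes that rose kept their call in every fit with 1 library left out, while each of the 3 that fell lost it in at least 3 of the 6.

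Sema3e and Efnb2 are the members that rose, so the 250 bases before their transcription starts are shown. The sequences are those of RefSeq on GRCm38.p6, whose promoter table holds 47 of the 53 genes. In both, the window ends where a GENCODE M21 transcript of the gene begins. The Sema3e window lies at chr5:14025026-14025275 on the plus strand, and the Efnb2 window at chr8:8661243-8661492 on the minus strand. Capitals mark a match to any of 5 motifs searched on both strands: AGATAA (the GATA factor core), CATGTG and CACGTG (E-boxes, CATGTG of the MITF type), TGANTCA (AP-1) and the palindromic glucocorticoid receptor motif.
Sema3e: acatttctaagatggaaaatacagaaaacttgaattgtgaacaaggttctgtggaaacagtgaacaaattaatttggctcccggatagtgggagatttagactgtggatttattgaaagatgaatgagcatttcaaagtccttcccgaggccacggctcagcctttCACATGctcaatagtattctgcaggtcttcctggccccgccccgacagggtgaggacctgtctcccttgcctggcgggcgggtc
Efnb2: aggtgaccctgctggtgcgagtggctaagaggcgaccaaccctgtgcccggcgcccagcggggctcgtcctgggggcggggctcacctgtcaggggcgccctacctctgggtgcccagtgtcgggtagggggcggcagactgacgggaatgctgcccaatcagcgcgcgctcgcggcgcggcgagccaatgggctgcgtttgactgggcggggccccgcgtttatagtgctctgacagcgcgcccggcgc
The Sema3e window held 1 match, CATGTG read on the other strand, beginning 84 bases before the start. The Efnb2 window held none of the 5. Among the 32851 windows of the same length in the table, 12.3% held CATGTG, 9.99% AGATAA, 6.75% TGANTCA, 6.02% CACGTG and 0.00913% the glucocorticoid receptor motif. The windows also differed in base composition: 48.0% G or C with 7 CG pairs for Sema3e, and 72.0% with 27 CG pairs for Efnb2, where the median of all windows was 52.4%.

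**Figure D1:**
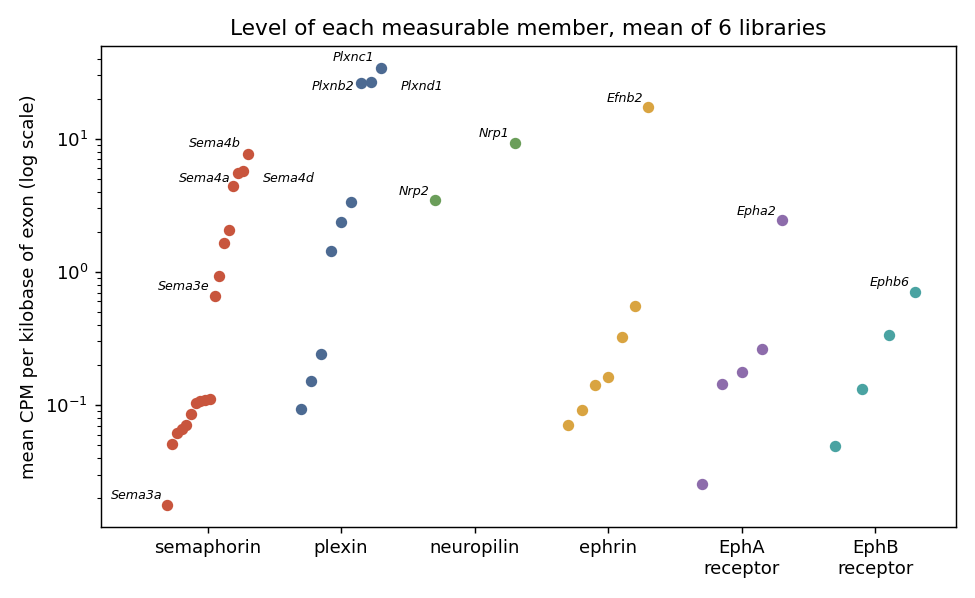
Mean level of each measurable member over the 6 libraries, in CPM per kilobase of exon on a log scale, 1 point per gene and 1 column per family; the highest member of each family and a few others are named. Plxnc1, Plxnd1, Plxnb2 and Efnb2 sit above 17 CPM per kilobase, and the EphB receptors all sit below 1.

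Levels of different genes are compared per kilobase of merged exon length. By that measure 3 plexins led: Plxnc1 at 34.2 CPM per kilobase, Plxnd1 at 26.6 and Plxnb2 at 26.1. They were followed by Efnb2 at 17.3 and Nrp1 at 9.37. The highest semaphorin was Sema4b at 7.68, then Sema4d at 5.71 and Sema4a at 5.49. Plxnc1 stood at the 91.9th percentile of all genes tested, and the leading 3 plexins were each above every semaphorin. Of the 45 genes, 4 had a mean of at least 100 CPM, 14 of at least 10 CPM, and 18 were under 1 CPM.

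Class 3 semaphorins are secreted, and Sema3e differs from the others in that it binds plexin D1 directly, without a neuropilin. Sema3e stood at 3.07, 1.51 and 2.61 CPM in the controls, listed here and below in the order of their replicate numbers, and at 10.9, 11.3 and 7.61 CPM in the stress libraries. Every stress library lay above every control, and the lowest of them, stress replicate 3, was more than 2 times the highest control. The raw counts behind these levels were 236, 89 and 148 in the controls and 551, 607 and 423 in the stress libraries. Sema3e rose 4.11-fold (log2 fold change 2.04 ± 0.25 SE, adjusted p = 0.0055). Its log2 fold change ran from 1.80 to 2.27 when single libraries were left out, with adjusted p up to 0.0294. With the mean level of the macrophage markers as a covariate it was 1.76 (adjusted p = 0.0014). The melanocyte markers were higher in the same 3 stress libraries, at a summed 39.2, 69.8 and 28.5 CPM in stress replicates 1, 2 and 3; their part in the rise of Sema3e was not tested. Sema3e made up 1.247% ± 0.465 of all semaphorin counts in the controls and 5.98% ± 1.57 after prenatal stress (SD, n = 3).

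**Figure D2:**
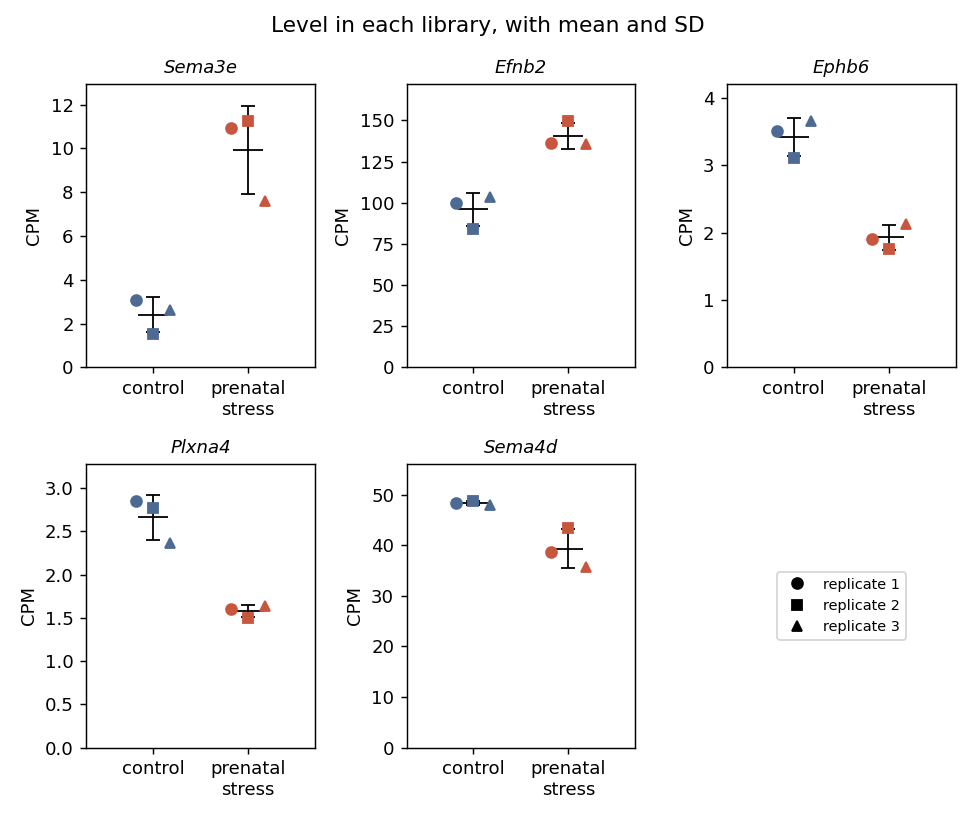
Level in CPM, from 0, of the 5 members that passed the test, 1 panel per gene; each marker is 1 library (circle, square and triangle for replicates 1, 2 and 3), and the bars give the mean and SD of 3 libraries. The groups do not overlap in any panel, and Sema3e shows the widest gap relative to its level, with the lowest stress library at 7.61 CPM and the highest control at 3.07 CPM.

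The other 6 class 3 semaphorins, Sema3a, Sema3b, Sema3c, Sema3d, Sema3f and Sema3g, averaged under 1 CPM and none passed. Sema3g was higher in every stress library, at 0.413 ± 0.0893 and 0.570 ± 0.0638 CPM (adjusted p = 0.328). Sema3c was at 0.638, 0.527 and 0.423 CPM in the controls and at 0.873, 1.48 and 0.612 CPM under stress (0.89 on the log2 scale, adjusted p = 0.158). Its groups overlapped, and stress replicate 2 was the highest library. That library was also the highest for Sema3b, Sema3d, Sema5a and Efna5. The 8 fibroblast markers, none of which passed or was at 0 in any library, summed to 234 CPM there. They summed to 96.9 to 234 CPM over the stress libraries and to 88.6 to 113 CPM in the controls. Stress replicate 2 was also highest for the summed mast cell, melanocyte, endothelial, Schwann or neural crest, neuron, dendritic and T or innate lymphoid markers. It was not so for the macrophage, keratinocyte, pericyte, B cell or neutrophil markers. The part of any of these markers in these values was not tested. Without stress replicate 3 Sema3c passed (1.14, adjusted p = 0.0377), in a fit that called 15.4% of all genes. Sema3c passed in no other fit with 1 library left out (adjusted p up to 0.477). With the macrophage covariate Sema3c was at 0.36 and did not pass (adjusted p = 0.54).

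Class 4 semaphorins span the membrane and are the ones best known from immune cells. Sema4d (CD100), which binds plexin B1, plexin B2 and CD72, was at 48.4, 48.8 and 48.0 CPM in the controls and at 38.8, 43.5 and 35.8 CPM in the stress libraries. The controls lay within 1 CPM of each other and all stress libraries were below them. Sema4d fell 1.23-fold (log2 fold change -0.30 ± 0.07, adjusted p = 0.0496). It no longer passed with any one control or with stress replicate 1 left out (adjusted p from 0.108 to 0.178 in these 4 fits) or with another size factor, RLE (0.0521). With the macrophage covariate it was at -0.39 (adjusted p = 0.0118).

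Sema4a, a ligand of plexins on lymphocytes and vessels, was at 29.6, 36.4 and 33.0 CPM in the controls and at 25.4, 25.3 and 28.5 CPM after prenatal stress. The groups did not overlap, but the test was not passed (log2 fold change -0.32 ± 0.09, adjusted p = 0.0642). Sema4b was at 44.3, 54.3 and 45.5 CPM and at 31.0, 34.1 and 51.0 CPM (adjusted p = 0.296), with stress replicate 3 inside the control range. Sema4c was at 22.2, 19.9 and 22.0 CPM and at 18.6, 18.3 and 20.8 CPM (adjusted p = 0.264). Stress replicates 1 and 2 lay below the controls and stress replicate 3 within their range. Sema4g, at 0.586 ± 0.057 CPM in the controls and 0.290 ± 0.172 CPM after prenatal stress, did not pass (adjusted p = 0.170), though its groups did not overlap.

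Among the class 5, 6 and 7 semaphorins no gene passed. Sema6d, which acts through plexin A1 together with TREM2 and TYROBP in myeloid cells, was at 23.7, 28.0 and 24.5 CPM in the controls and at 16.9, 13.6 and 24.5 CPM in the stress libraries (adjusted p = 0.155). Stress replicate 3 stood within the control range while the other 2 stress libraries were clearly lower. Sema6b was at 7.22 ± 0.703 and 5.98 ± 0.275 CPM without overlap (adjusted p = 0.150). Sema7a, the ligand of plexin C1 and of integrin beta 1, was at 2.84 ± 0.226 and 3.28 ± 0.200 CPM (adjusted p = 0.348), again without overlap. Sema5a, Sema6a and Sema6c had adjusted p-values from 0.335 to 0.724.

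Plexins were the most abundant of these families, at a summed 759.5 ± 30.8 CPM in the controls and 731.1 ± 29.5 CPM after prenatal stress (SD, n = 3), and 1 of the 9 passed. That gene was Plxna4, a partner of neuropilins in class 3 semaphorin signalling. It was at 2.85, 2.77 and 2.36 CPM in the controls and at 1.61, 1.503 and 1.64 CPM in the stress libraries. The stress libraries lay close together and below every control. Plxna4 fell 1.68-fold (log2 fold change -0.75 ± 0.15, adjusted p = 0.0256). Leaving out a single library ended the call in 4 of 6 cases: adjusted p was 0.0865 and 0.108 with control replicates 1 and 2 removed, and 0.0626 and 0.0939 with stress replicates 1 and 2 removed. With the macrophage covariate the value was -0.74 (adjusted p = 0.048).

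Plxnd1, the receptor of Sema3e, was at 196.6, 176.8 and 202.8 CPM in the controls and at 202.0, 193.7 and 192.4 CPM in the stress libraries. The groups overlapped, and the interval of the log2 fold change ran from -0.12 to 0.18 (95%, adjusted p = 0.820). Set beside its ligand per kilobase, Plxnd1 was 81.3, 148.5 and 98.9 times the level of Sema3e in the controls and 23.5, 21.9 and 32.2 times in the stress libraries. Plxnc1, the receptor of Sema7a, was at 290.1, 241.9 and 268.2 CPM and at 294.4, 321.4 and 295.1 CPM. Its stress libraries were all above the controls by a small margin, and it did not pass (log2 fold change 0.19 ± 0.08, adjusted p = 0.178).

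Plxnb2, a receptor of class 4 semaphorins, was at 216.7, 246.9 and 250.1 CPM in the controls and at 152.8, 130.7 and 213.1 CPM in the stress libraries. All stress libraries lay below the controls, with stress replicate 3 only just so (log2 fold change -0.52 ± 0.16, adjusted p = 0.0832). The share of Plxnb2 among all plexin counts was 31.4% ± 2.96 and 22.5% ± 4.85, and that of Plxnc1 35.1% ± 2.33 and 41.6% ± 3.39. Plxna2 was at 4.02, 2.55 and 3.05 CPM and at 5.37, 5.68 and 4.37 CPM, higher in every stress library, and did not pass (0.67 ± 0.18, adjusted p = 0.0622). Without stress replicate 3 both passed, Plxnb2 at -0.75 (adjusted p = 0.0013) and Plxna2 at 0.77 (adjusted p = 0.0185). That fit called 15.4% of all genes. Of the 6 fits with 1 library left out, Plxnb2 passed in 1 (adjusted p up to 0.253) and Plxna2 in 2 (up to 0.213). With the macrophage covariate Plxna2 was at 0.47 and did not pass (adjusted p = 0.132).

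Plxna1 and Plxna3, broadly expressed A-class plexins, overlapped between groups. Plxna1 was at 23.3, 21.9 and 21.6 CPM in the controls and at 20.1, 18.9 and 24.0 CPM after prenatal stress (adjusted p = 0.612). Plxna3 was at 24.6, 22.1 and 25.7 CPM and at 32.7, 27.8 and 24.6 CPM (adjusted p = 0.221). Stress replicate 3 lay nearest to the controls for Plxna3 and above all of them for Plxna1. Plxnb1 and Plxnb3, the remaining B-class members, had adjusted p-values of 0.849 and 0.450, and Plxnb3 was below the controls in every stress library by a small margin (9.63 ± 0.463 and 8.97 ± 0.182 CPM). In GENCODE M21, 10.7% of the exon length of Plxna1 and 7.27% of that of Sema4c coincide with exons of an antisense gene, and no source used here gives the strand setting of the counting.

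Both neuropilins were measured and neither passed. Nrp1, which also binds VEGF, was at 89.9, 103.8 and 104.7 CPM in the controls and at 79.2, 66.3 and 106.4 CPM in the stress libraries (log2 fold change -0.24 ± 0.15, adjusted p = 0.350). Nrp2 was at 43.6, 48.0 and 47.7 CPM and at 30.8, 32.5 and 44.2 CPM (-0.37 ± 0.13, adjusted p = 0.111). For both genes stress replicates 1 and 2 were below every control and stress replicate 3 was not. The proportion of the 2 was steady: Nrp1 gave 68.1% ± 0.714 of neuropilin counts in the controls and 69.9% ± 2.51 after prenatal stress.

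**Figure D3:**
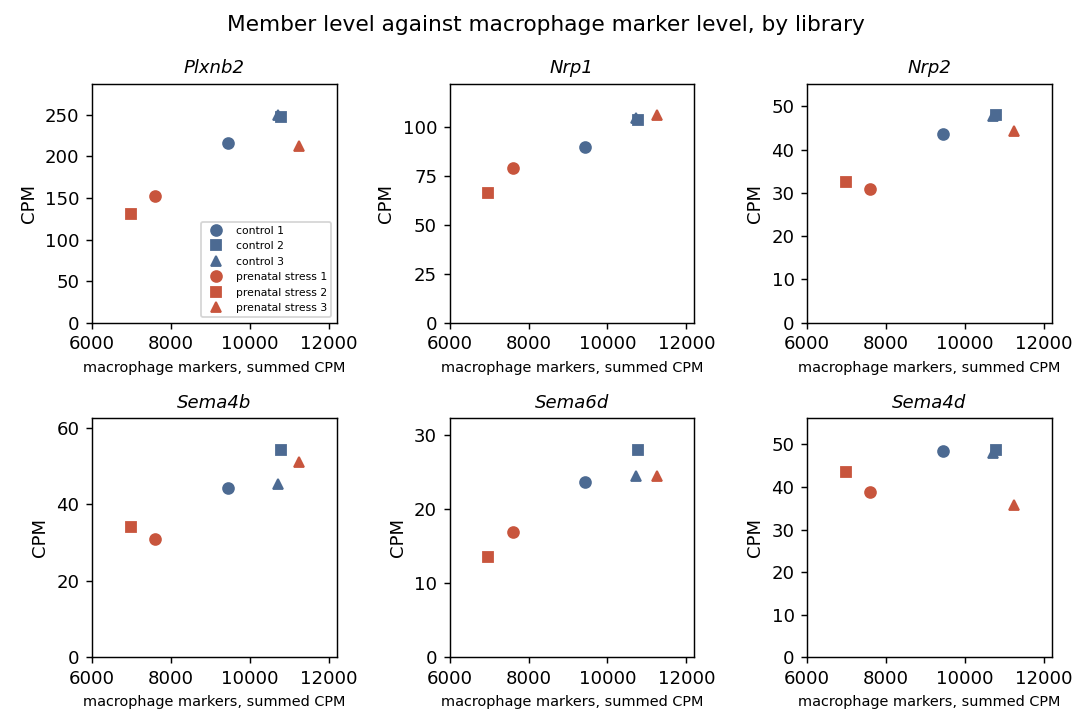
Level in CPM of 6 members (vertical axis, from 0) against the summed CPM of 16 macrophage and monocyte markers (horizontal axis, not from 0), 1 marker per library, blue for control and red for prenatal stress. In the first 5 panels the stress libraries with 6974 and 7600 CPM of macrophage markers are the lowest; for Sema4d the stress library with 11249 CPM is the lowest.

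Plxnb2, Nrp1, Nrp2, Sema4b and Sema6d thus shared a pattern over libraries: stress replicates 1 and 2 were low and stress replicate 3 was near or within the control range. The summed macrophage markers were likewise lowest in stress replicates 1 and 2, at 7600 and 6974 CPM, and stood at 11249 CPM in stress replicate 3. These 5 genes were grouped after their values were seen, so their values without stress replicate 3 or with the macrophage covariate follow in part from that choice and are given as a description; the part of macrophage RNA in them was not tested. Genes outside this group, such as Sema4c and Plxna1, also had stress replicates 1 and 2, but not 3, below every control. Neither Sema4c nor Plxna1 passed without stress replicate 3 (adjusted p = 0.0836 and 0.0964). Over all 45 genes stress replicate 3 was the stress library nearest to the control mean in 27, 60%, where it was so in 41.4% of all genes tested. Without stress replicate 3 all 5 genes of the group passed, with log2 fold changes of -0.75 for Plxnb2, -0.45 for Nrp1, -0.56 for Nrp2, -0.57 for Sema4b and -0.74 for Sema6d. In that fit 15 of the 45 genes were called, 33.3%, where 15.4% of all genes were. With the macrophage marker mean as a covariate, Sema4b was at -0.08 (adjusted p = 0.696), Sema6d at -0.21 (0.215), Nrp2 at -0.19 (0.161), Nrp1 at -0.01 (0.948) and Plxnb2 at -0.28 (0.0326). That fit called 8 of the 45 genes, 17.8%, against 4.85% of all genes, and the 5 genes called without the covariate were among them.

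Ephrin-B2, encoded by Efnb2, is a membrane-spanning ligand best known from arterial vessels, and it binds EphB receptors and EphA4. Efnb2 was at 99.9, 84.3 and 103.5 CPM in the controls and at 136.4, 149.9 and 135.6 CPM in the stress libraries. The 3 stress libraries lay together, all above the highest control. Efnb2 rose 1.47-fold (log2 fold change 0.55 ± 0.08, adjusted p = 0.0115). The fold ran from 0.47 to 0.61 on the log2 scale when single libraries were left out, with adjusted p up to 0.0486, and it was 0.50 with the macrophage covariate (adjusted p = 0.0128). The 10 endothelial markers did not pass, and none was at 0 in any library. They summed to 46.5 to 60.5 CPM in the controls and 48.1 to 65.7 CPM after prenatal stress. The 12 mast cell markers had a median log2 fold change of 0.50. The part of either set in the rise of Efnb2 was not tested.

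Efnb2 supplied 96.6% ± 0.549 of all ephrin counts in the controls and 97.9% ± 0.0872 after prenatal stress. The other 6 measured ephrins, Efna1, Efna2, Efna4, Efna5, Efnb1 and Efnb3, averaged at most 1.11 CPM and did not pass. Of these, Efnb1 had groups that did not overlap, at 1.247 ± 0.114 and 0.983 ± 0.0795 CPM (adjusted p = 0.288). In GENCODE M21, the exons of Efna4 partly coincide with those of an antisense gene.

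EphB receptors bind the B-class ephrins. All 4 measured had negative log2 fold changes, with a median of -0.77, and 1 of them passed. Ephb6, a receptor without kinase activity, was at 3.50, 3.11 and 3.66 CPM in the controls and at 1.90, 1.76 and 2.12 CPM in the stress libraries. No stress library reached the lowest control. Ephb6 fell 1.77-fold (log2 fold change -0.83 ± 0.14, adjusted p = 0.0166). It narrowly missed the threshold in 3 of 6 fits with a library removed, at adjusted p = 0.051 (no control replicate 1), 0.0611 (no control replicate 3) and 0.0662 (no stress replicate 2), and the value was -0.75 with the macrophage covariate (adjusted p = 0.0327).

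Ephb2 was at 6.16, 5.26 and 4.05 CPM in the controls and at 3.41, 3.54 and 2.91 CPM after prenatal stress. Its groups did not overlap, and it missed the threshold (log2 fold change -0.65 ± 0.17, adjusted p = 0.0539). With the macrophage covariate it passed (-0.82, adjusted p = 0.0243), as it did without control replicate 3 (adjusted p = 0.0421). Ephb2 passed in no other fit with 1 library left out (adjusted p up to 0.188). Ephb3 was at 0.625, 0.425 and 0.317 CPM and at 0.278, 0.241 and 0.090 CPM (adjusted p = 0.140), lower in every stress library on few counts. It passed in none of the fits with 1 library left out. With the macrophage covariate its log2 fold change went from -1.19 to -1.97 and passed (adjusted p = 0.0346). Ephb4, the receptor paired with ephrin-B2 in vessels, was at 0.873, 0.953 and 0.476 CPM and at 0.357, 0.520 and 0.522 CPM, with overlap (adjusted p = 0.208).

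Efnb2 and the EphB receptors therefore had fold changes of opposite sign. Per kilobase, Efnb2 was 8.58, 8.14 and 10.47 times the summed level of Ephb2, Ephb3, Ephb4 and Ephb6 in the controls, and 22.25, 24.4 and 21.5 times in the stress libraries. This ratio is taken within a library, so the scaling between libraries does not enter it. It was formed after the values of these genes were seen and is given with no test.

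EphA receptors mainly bind the A-class ephrins, and none of the 5 measured passed. Epha2, the most abundant, was at 12.5, 11.3 and 12.7 CPM in the controls and at 10.6, 12.2 and 9.17 CPM after prenatal stress (adjusted p = 0.311). The groups overlapped. Epha4, which binds both ephrin classes, was at 1.60, 1.82 and 2.395 CPM and at 0.853, 0.575 and 1.28 CPM. All stress libraries were below the controls, and the test was not passed (log2 fold change -1.10 ± 0.29, adjusted p = 0.0609). Epha4 did pass without stress replicate 3 (-1.44, adjusted p = 0.0076), in a fit that called 15.4% of all genes. Epha4 passed in no other fit with 1 library left out (adjusted p up to 0.182). With the macrophage covariate Epha4 was at -0.74 and did not pass (adjusted p = 0.101). Epha1, Epha3 and Epha7 had adjusted p-values from 0.375 to 0.721, and Epha7 did not overlap between groups (1.55 ± 0.0782 and 1.30 ± 0.0966 CPM).

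**Figure D4:**
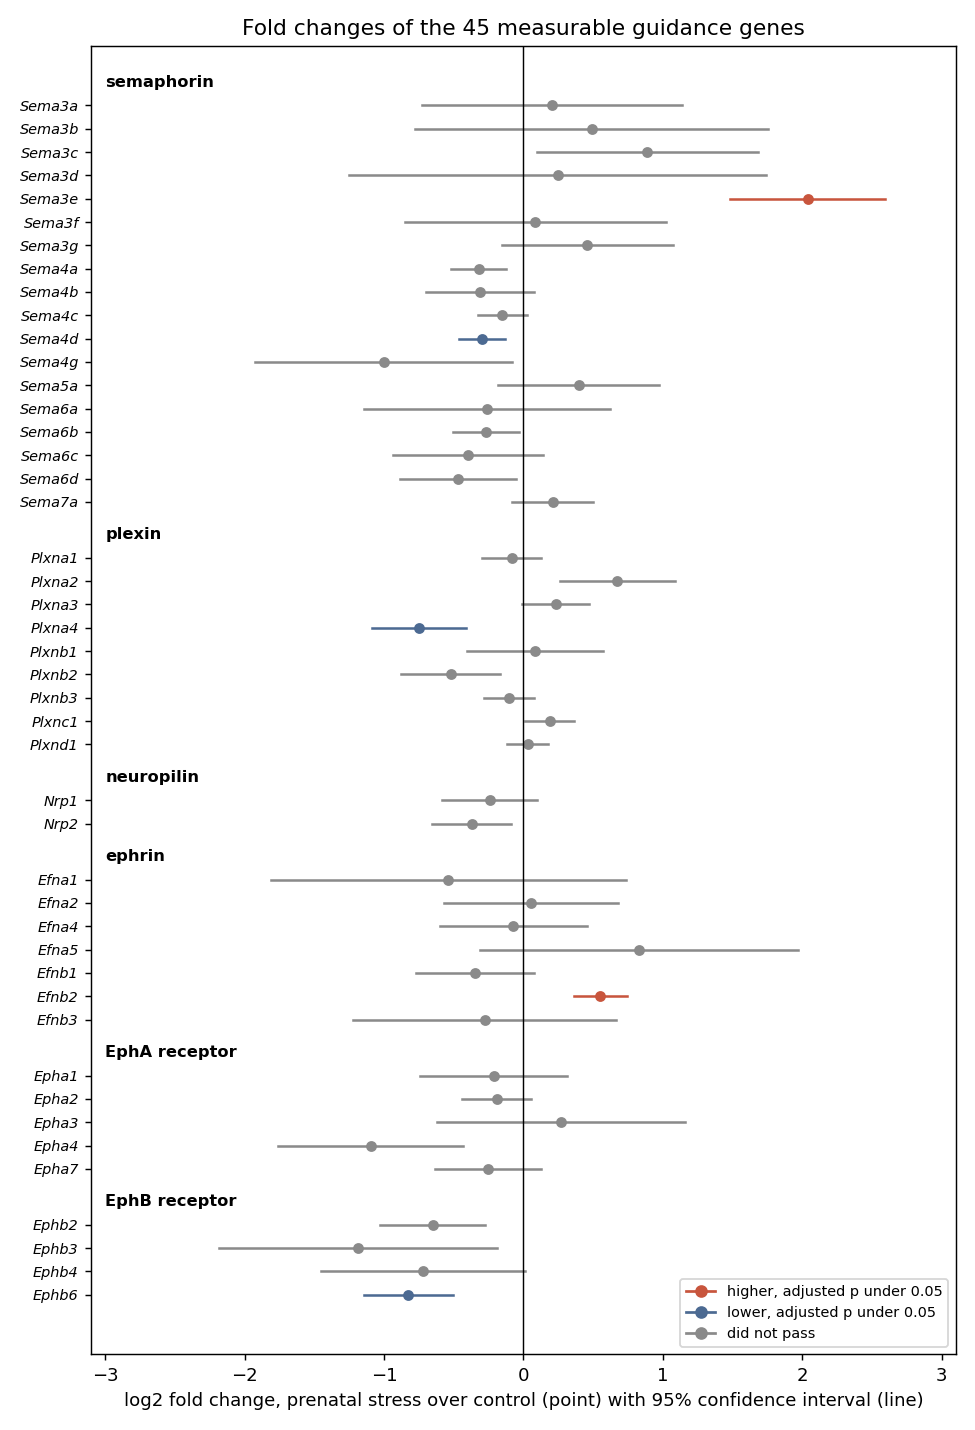
Log2 fold change of each of the 45 measurable genes (point, positive where higher after prenatal stress) with its 95% confidence interval from the edgeR fit (line), grouped by family; red and blue mark the genes that passed at an adjusted p of 0.05 and grey the rest. The interval of Sema3e runs from 1.48 to 2.60, and the 4 EphB receptors all have points left of 0.

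Over the 45 genes, 27 had a negative and 18 a positive log2 fold change. The stress libraries lay below all controls in 13 genes, 28.9%, where they did so in 14.5% of all genes tested. They lay above all controls in 6 genes, 13.3%, where all genes gave 16.0%. By family the median log2 fold changes were -0.03 for semaphorins, 0.03 for plexins, -0.31 for neuropilins, -0.07 for ephrins and -0.21 for EphA receptors. In either direction 30.6% of all genes did not overlap. Under other settings the calls among these genes are set beside those among all genes. Scaling by library totals alone, which moved the median of all genes to -0.12, called 10, 8 of them lower, where 12.5% of all genes were called, and 26.5% of all calls were then higher in place of 70%. DESeq2 called 11, beside 11.9% of all genes. With no filter 51 guidance genes were tested and 12 called, beside 6.60% of the 29276 genes then tested. RLE factors called 4, beside 6.20%, and limma-voom 5, beside 5.96%. The stricter filter left 27 of these genes and called 5, beside 9.50%. A block on the replicate number called 5, beside 3.72%. With control replicate 1, 2 or 3 left out 3, 3 and 4 were called, beside 2.69%, 1.33% and 2.27%. Without stress replicate 1 or 2 it was 3 each, beside 2.67% and 1.14%.

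The genes that carry these signals inside the cell were counted in the same fit, where 4.34% of all genes were called higher and 1.85% lower. Of 36 measured effectors of semaphorins and plexins, 2 rose, 2 fell and 32 did not pass (median log2 fold change 0.04, beside -0.0039 for all genes). Rnd3, a small GTPase, was at 10.2, 9.41 and 8.89 CPM in the controls and at 17.2, 19.6 and 19.2 CPM after prenatal stress. The groups lay far apart, and Rnd3 rose by 0.97 ± 0.08 on the log2 scale (adjusted p = 0.00139) with its call kept whichever library was left out. Rac1, the GTPase that drives membrane ruffling, rose from 604 ± 21.6 to 741 ± 22.8 CPM (adjusted p = 0.0276). Arhgap35, a GTPase-activating protein, fell from 11.2 ± 0.382 to 7.96 ± 1.21 CPM (adjusted p = 0.0386), and the kinase gene Pak1 from 53.0 ± 0.992 to 41.2 ± 4.35 CPM (adjusted p = 0.0312). The calls of Rac1, Arhgap35 and Pak1 each ended in 5 of the 6 fits with 1 library left out, all but the one without stress replicate 3 (adjusted p up to 0.154). With the macrophage covariate Rac1 (adjusted p = 0.0609) and Arhgap35 (0.0593) did not pass either.

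Of 36 measured effectors of Eph receptors and ephrins, 2 rose, 1 fell and 33 did not pass (median 0.02), beside the same 4.34% higher and 1.85% lower of all genes. The gene that fell was Vav2, an exchange factor that Eph receptors use to activate Rac, from 29.0 ± 0.855 to 19.1 ± 2.19 CPM (-0.60 ± 0.09 on the log2 scale, adjusted p = 0.00996). Its call was kept whichever library was left out. Tiam1, another exchange factor for Rac, rose from 204 ± 28.8 to 284 ± 22.9 CPM (adjusted p = 0.0369) in a call that ended in 5 of the 6 fits with 1 library left out, all but the one without stress replicate 3 (adjusted p up to 0.133), and with the macrophage covariate (0.0656). The other gene that rose was Pik3r1 (0.45 ± 0.06, adjusted p = 0.00644). Among 15 measured co-receptors and further receptors of semaphorins, none rose and 1 fell: Ptk7, a receptor without kinase activity that joins plexin complexes, was at 5.98, 5.54 and 4.86 CPM in the controls and at 2.30, 3.41 and 3.26 CPM after prenatal stress (adjusted p = 0.022). Removing control replicate 1, control replicate 2 or stress replicate 2 each ended this call (adjusted p up to 0.0949). Trem2, the partner of plexin A1 named above, was at 31.9 and 22.4 CPM on average (adjusted p = 0.0539).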

How the data were processed

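The authors deposited 1 table of raw counts per gene symbol for each library. FastQC, STAR 2.4 and HTSeq 0.9.1 and the builds GRCm39 and mm10 are named in the submitters' processing notes, with no role for either build. The sources used here give neither the strand setting nor the annotation. The libraries were stranded and poly-A selected, per the labels' protocols. The 5 rows that name no gene were left out. Of all records counted in a library, these 5 rows included, 79.7% to 81.4% were assigned to genes. The row for unaligned reads was at 0 in every library, so this is not a share of all reads sequenced.

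From these counts, genes were kept by edgeR's filterByExpr (minimum count 10; 16716 genes) and scaled by TMM. Prenatal stress was tested against control by edgeR 4.0.16's quasi-likelihood test in R 4.3.3 without covariates, at an adjusted p (Benjamini-Hochberg, all genes) of 0.05. CPM use TMM-scaled totals; log2 fold changes carry their SE and are positive where higher after prenatal stress. Gene lengths and overlaps come from GENCODE M21, used for lengths, overlaps and transcript starts only.

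The genes and lists were chosen with earlier results of these data known. Values in every library are given for members that passed or averaged at least 10 CPM, and for some others without overlap between groups. They are also given for Sema3c and Ephb4, whose groups overlapped. Up to 4 called genes are named per pathway list. Alternatives were RLE factors, library totals, no filter, a stricter filter (10 counts in 3 libraries and a mean of 1 CPM), DESeq2 1.42.0, limma-voom 3.58.1, the replicate block, the macrophage covariate and each library left out. The test was tried on simulated data with the same dispersion for every gene, and no result here rests on that trial.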

Additional observations from a re-analysis of the deposited data

How the results depend on the processing

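Of the guidance genes 5 were called, beside 6.19% of all genes. The count was 10 with library totals only (12.5% of all genes), 12 with no filter (6.60%) and 11 with DESeq2 (11.9%). With the macrophage covariate it was 8 (4.85%). The count lower, 3, was 8, 9, 8 and 6 in the same order. With no filter 51 guidance genes and 29276 genes in all were tested. The count called in either direction was 4 with RLE factors (6.20% of all genes). It was 5 with the stricter filter (9.50%) and with limma-voom (5.96%). Leaving out 1 library gave 3 to 15 called, 2 to 5 higher and 0 to 10 lower, beside 1.14% to 15.4% of all genes called. Genes called in the whole table, 1035, were 2085, 1933 and 1989 with library totals, no filter and DESeq2, and 196 to 2647 with 1 library left out; of those called, 70% were higher in the reported fit, 26.5% with library totals and 58.1% with no filter. Pathway genes called, 13, were 23, 25 and 26 with library totals, no filter and DESeq2, and 5 to 32 with 1 library left out. The cause of these shifts was not tested. No guidance or pathway gene that passed changed sign in these fits.

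The replicate numbers were also used as a block. The deviations of same-numbered libraries from their group means had correlations of 0.095, -0.019 and 0.068. Control replicate 1 deviated most like stress replicate 2 (0.128) and control replicate 2 like stress replicate 3 (0.136). Thus not every library correlated best with its own number. With 3 libraries per group the deviations are tied to each other, so these values cannot decide whether same-numbered libraries shared a batch. With the block 622 genes in all passed, 5 guidance genes and 8 pathway genes. Ephb6, Sema3e and Efnb2 stayed called, Epha4 and Ephb2 were added, and Plxna4 (adjusted p = 0.0566) and Sema4d (0.0645) did not pass. Genes under about 1 CPM rest on few counts, so intervals such as that of Efna5, from -0.31 to 1.97, leave changes of either sign possible.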

Other observations

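The remaining guidance families, Slit, Robo, netrin, their receptors and associated genes, and the enzymes that cut guidance proteins, were counted in the same fit. In that fit 4.34% of all genes were called higher and 1.85% lower. Of 22 measured genes of the Slit, Robo, netrin and repulsive guidance molecule list, 3 rose, 1 fell and 18 did not pass (median log2 fold change 0.08). Neo1, which encodes neogenin, a receptor of netrins and repulsive guidance molecules, was at 24.6, 18.6 and 21.9 CPM in the controls and at 45.3, 46.4 and 36.8 CPM after prenatal stress. All stress libraries lay above the controls, and Neo1 rose by 0.98 ± 0.12 on the log2 scale (adjusted p = 0.00565), a call kept whichever library was left out. Unc5b, a netrin receptor, rose from 9.64 ± 0.358 to 13.7 ± 1.05 CPM (adjusted p = 0.0142). With control replicate 2 removed it no longer passed (adjusted p = 0.0702), nor with stress replicate 2 removed (0.0589). Slit2, a secreted repellent, rose from 1.38 ± 0.352 to 2.62 ± 0.331 CPM (adjusted p = 0.0387), and Evl, which extends actin filaments, fell from 45.8 ± 4.97 to 31.9 ± 3.50 CPM (adjusted p = 0.0226). Slit2 passed in 1 and Evl in 2 of the 6 fits with 1 library left out, both of them passing without stress replicate 3. With the macrophage covariate Slit2 did not pass (adjusted p = 0.0755).

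Of 13 measured enzymes that process or shed guidance proteins, 1 rose and 12 did not pass (median -0.02). Of all genes, 4.34% were called higher and 1.85% lower. Furin, a convertase that cleaves class 3 semaphorins, was at 791, 668 and 824 CPM in the controls and at 1069, 1166 and 1146 CPM under stress (0.57 ± 0.09 on the log2 scale, adjusted p = 0.0118). The stress libraries lay together above every control. The call ended narrowly without stress replicate 2 (adjusted p = 0.0513). Over the 5 lists of pathway genes together, 13 of 122 measured genes passed, 10.7%, where 6.19% of all genes did.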
